A study of Mus musculus with 27 samples.

Results

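Livers of the inbred mouse strains NOD/ShiLtJ and NZO/HlLtJ were compared for DNA methylation in their hepatocytes, which are the liver's main cells. The comparison used the 3 NOD/ShiLtJ and the 3 NZO/HlLtJ samples of a series of 27 samples from 9 strains, all from female mice aged 12 weeks, with 3 samples per strain. The other 7 strains (the classical C57BL/6J, DBA/2J, A/J and 129S1/SvImJ and the wild-derived WSB/EiJ, PWK/PhJ and CAST/EiJ) served mainly to show which of the pair carried the more common level. No treatment is named for any group, and the labels give no blood glucose, body weight or disease state of the mice. Methylation was read by reduced representation bisulfite sequencing (RRBS), which samples the CpG-rich part of the genome by cutting DNA with MspI at CCGG.

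Each strain is used as a model of diabetes. NOD/ShiLtJ mice develop autoimmune diabetes, in which T cells destroy the insulin-producing beta cells, with females affected more often than males. NZO/HlLtJ mice become obese and insulin resistant, with diabetes mainly in males. In a CpG dinucleotide the cytosine can carry a methyl group, which is copied at cell division. CpG-rich gene starts are usually free of methylation, and most other CpGs of the genome carry it.

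Of 3837767 positions on chromosomes 1 to 19 and X listed in at least 1 of the 6 samples, 2383297 were listed in all 6, and 690910 of these were not listed in all 27. A position is a single cytosine, so that the strands of a CpG count separately. They gave 105330 tiles, which are fixed windows of 1 kb with 5 or more such positions, against 63592 tiles from positions listed in all 27. A tile was tested where its mean over the 6 samples was at least 2.5 points away from 0 and from 100%, which left 84383 tiles. The files hold no read counts, so each percentage comes without its depth and without a counting interval. A level between 0 and 100% in such a sample can reflect a share of cells or of alleles, and these cannot be told apart.

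Reference sequences of 6 gene starts at which the pair differed are shown first, since they let the read CpGs be seen in place. They are windows from 250 bases before to 50 bases after a start, from RefSeq's GRCm38.p6 table, written 5′ to 3′ along the gene's strand, with each CG that was read in all 6 samples in capitals. They lie at chr9:89066970-89067269 (plus strand, Gm24463), chr11:48825888-48826187 (plus strand, Trim7), chr13:119488335-119488634 (minus strand, 3110070M22Rik), chr5:5573754-5574053 (plus strand, Gm8773), chr8:63952121-63952420 (minus strand, Sgo2b) and chr17:88791965-88792264 (minus strand, Lhcgr). The starts of 3110070M22Rik and Lhcgr were chosen after their values were seen.
Gm24463: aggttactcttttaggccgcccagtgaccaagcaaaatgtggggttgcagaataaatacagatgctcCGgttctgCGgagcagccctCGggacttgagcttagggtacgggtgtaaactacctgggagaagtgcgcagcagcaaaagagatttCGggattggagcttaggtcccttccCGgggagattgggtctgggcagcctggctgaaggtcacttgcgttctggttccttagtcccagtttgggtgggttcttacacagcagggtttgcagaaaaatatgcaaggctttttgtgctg
Trim7: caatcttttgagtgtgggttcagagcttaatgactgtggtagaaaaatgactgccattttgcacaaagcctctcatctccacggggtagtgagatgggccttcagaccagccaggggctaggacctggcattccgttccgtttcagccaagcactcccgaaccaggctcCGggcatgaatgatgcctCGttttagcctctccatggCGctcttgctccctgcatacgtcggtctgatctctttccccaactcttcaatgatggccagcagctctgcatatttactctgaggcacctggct
3110070M22Rik: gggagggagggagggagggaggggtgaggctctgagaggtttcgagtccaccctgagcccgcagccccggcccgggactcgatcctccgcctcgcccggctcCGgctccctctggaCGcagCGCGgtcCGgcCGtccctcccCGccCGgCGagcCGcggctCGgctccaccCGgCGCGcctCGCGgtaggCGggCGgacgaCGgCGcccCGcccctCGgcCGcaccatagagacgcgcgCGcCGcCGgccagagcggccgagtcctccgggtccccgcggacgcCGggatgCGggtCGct
Gm8773: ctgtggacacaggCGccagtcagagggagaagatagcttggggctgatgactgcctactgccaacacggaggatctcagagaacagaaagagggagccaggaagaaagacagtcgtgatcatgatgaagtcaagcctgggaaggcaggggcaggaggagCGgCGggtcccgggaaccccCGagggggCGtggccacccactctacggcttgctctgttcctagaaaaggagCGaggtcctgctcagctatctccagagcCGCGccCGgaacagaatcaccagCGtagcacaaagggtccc
Sgo2b: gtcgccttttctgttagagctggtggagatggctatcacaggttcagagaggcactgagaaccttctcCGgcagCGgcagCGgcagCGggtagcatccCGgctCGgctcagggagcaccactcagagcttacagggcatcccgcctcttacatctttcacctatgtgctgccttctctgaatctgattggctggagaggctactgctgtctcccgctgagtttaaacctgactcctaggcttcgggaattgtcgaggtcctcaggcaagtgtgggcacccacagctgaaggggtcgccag
Lhcgr: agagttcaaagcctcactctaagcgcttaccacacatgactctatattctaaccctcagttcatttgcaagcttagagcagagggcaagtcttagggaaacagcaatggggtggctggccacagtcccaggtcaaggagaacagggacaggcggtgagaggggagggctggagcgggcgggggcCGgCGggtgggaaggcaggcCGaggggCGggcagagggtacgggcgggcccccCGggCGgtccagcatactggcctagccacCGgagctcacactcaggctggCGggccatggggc

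In the Gm24463 window 5 of 9 CGs were read, and all 8 positions were higher in NZO/HlLtJ, by 89.3 to 98.4 points. Trim7 had 3 of its 9 CGs read, and its 5 positions had a mean of 2.86% ± 4.95 (SD, n = 3) in NOD/ShiLtJ and 85.1% ± 6.76 (SD, n = 3) in NZO/HlLtJ. The other 4 windows were higher in NOD/ShiLtJ at every position read. For 3110070M22Rik that covered 29 of 48 CGs and 40 positions, with means of 83.1% ± 2.67 and 5.53% ± 1.48 (SD, n = 3 each). The 20 positions of the Gm8773 window had means of 77.2% ± 4.38 and 13.1% ± 2.63 (SD, n = 3 each). At Sgo2b the 11 positions averaged 65.4% ± 2.82 in NOD/ShiLtJ and 4.43% ± 2.06 in NZO/HlLtJ (SD, n = 3 each). Lhcgr was the most variable of these windows, with 60.7, 41.6 and 54.0% in the NOD/ShiLtJ samples and 4.78, 6.39 and 5.16% in the NZO/HlLtJ samples over 12 positions. CCGG, read as these letters and the same on both strands, is held by 52.8% of the 32851 promoter windows in the table. Windows of 17 genes met a called tile and had 3 or more positions read, in 21 pairs of window and tile.

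**Figure D1:**
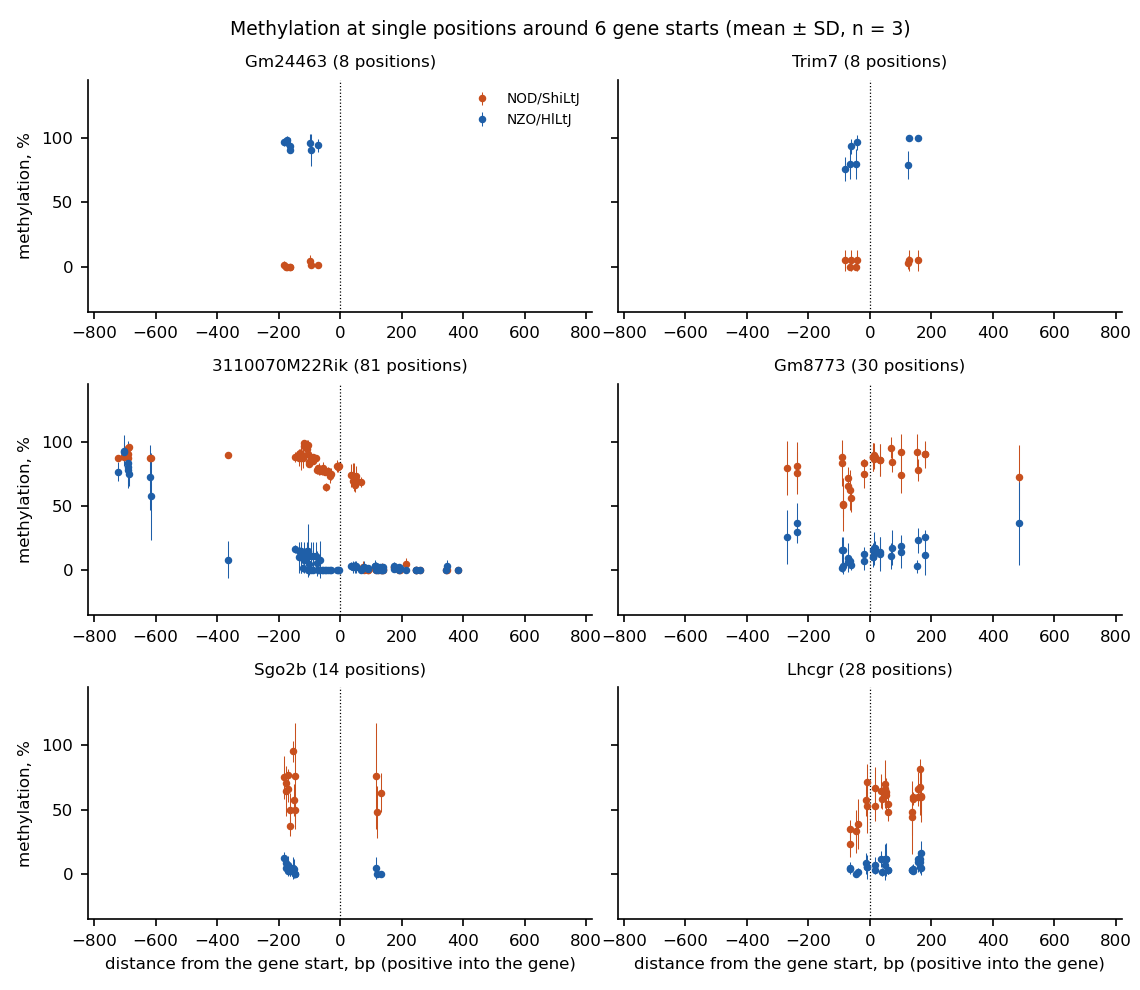
Methylation in percent (vertical axis) at single positions within 800 bp of 6 gene starts against the distance from the start in bp (horizontal axis), with NOD/ShiLtJ in orange and NZO/HlLtJ in blue. Points are means of 3 samples and bars are SDs, which may run past 0 and 100%. Gm24463 and Trim7 were high in NZO/HlLtJ, and the other 4 starts were high in NOD/ShiLtJ, with both strains low farther into 3110070M22Rik.

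The question asked of the pair was which regions differ, and in which direction. Between the strains 298 of the 84383 tested tiles, or 0.353%, differed by at least 25 percentage points with an adjusted p under 0.05 (limma with Benjamini-Hochberg adjustment over all tested tiles). Of these, 163 (0.193% of tested tiles) were higher in NOD/ShiLtJ and 135 (0.16%) were higher in NZO/HlLtJ. The share called depended on the mean over the 6 samples. It was 0 of 7524 tiles with a mean under 10% and 0 of 35096 with a mean over 90%. Such means leave no room for a difference of 25 points between groups of equal size. Tiles with a mean of 25 to 75% held 247 of the called tiles, from 14341 tested (1.72%). The median absolute difference was 36.3 points in called tiles, with a median SE of 3.33 points, and 2.23 points over all tested tiles. Tiles higher in NOD/ShiLtJ had median levels of 74.6% in that strain and 26.5% in the other. Those higher in NZO/HlLtJ had median levels of 77.6% in NZO/HlLtJ and 30.4% in NOD/ShiLtJ. A switch from under 20% to over 80% was seen in 8 tiles toward NOD/ShiLtJ and in 7 toward NZO/HlLtJ. In 203 of the called tiles all positions differed in the direction of the tile, and in 15 fewer than 75% of positions did.

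Leaving out 1 sample lowered the number of called tiles in every case. It was 97, 161 and 95 without NOD/ShiLtJ replicate 1, 2 or 3 and 77, 73 and 73 without NZO/HlLtJ replicate 1, 2 or 3, and 51 tiles were called in all of these fits and in the fit of all 6 samples. Each fit without 1 sample had 5 samples and 3 residual degrees of freedom, against 6 and 4 in the main fit. The part of this smaller size in the lost calls was not tested. Without a test, 542 tiles (0.642%) had a difference of 25 points and no overlap of samples, 309 higher in NOD/ShiLtJ and 233 higher in NZO/HlLtJ. The smallest difference in a called tile was 25.3 points, and 18 tiles with a difference of 25 points or more had an adjusted p between 0.05 and 0.06 (limma). Among single positions 402 of 1120330 were called (0.0359%), 209 higher in NOD/ShiLtJ and 193 higher in NZO/HlLtJ. Their median difference was 92.7 points and their smallest 61.2 points, and 144 of them lay in a called tile. Leaving out 1 sample gave 218 to 279 called positions, of which 104 to 116 were also called with all 6 samples. Without NOD/ShiLtJ replicate 1, 2 or 3 more positions were higher in NZO/HlLtJ (157, 123 and 152) than in NOD/ShiLtJ (122, 109 and 109), so the balance of directions among positions turned. Without NZO/HlLtJ replicate 1, 2 or 3 more were higher in NOD/ShiLtJ (146, 123 and 130) than in NZO/HlLtJ (100, 106 and 88). The balance thus moved away from the strain that lost a sample.

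**Figure D2:**
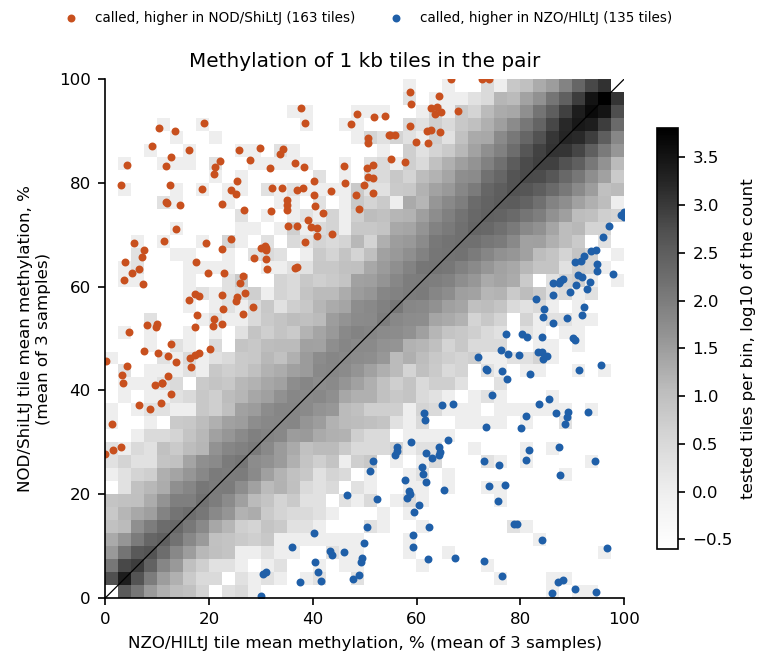
Mean methylation of tested 1 kb tiles in percent in NZO/HlLtJ (horizontal axis) and NOD/ShiLtJ (vertical axis), each the mean of 3 samples. Grey squares give the log10 count of tiles per bin, orange points the 163 called tiles higher in NOD/ShiLtJ and blue points the 135 higher in NZO/HlLtJ; most tiles lie near the diagonal.

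The largest difference was in Gm24463, a long non-coding RNA gene, in the tile at chr9:89067001-89068000. The NOD/ShiLtJ samples had 1.14, 0.543 and 1.64% and the NZO/HlLtJ samples 96.7, 91.7 and 95.2% over 8 positions, a difference of -93.5 points for NOD/ShiLtJ minus NZO/HlLtJ (SE 1.51, adjusted p = 0.000563, limma). The samples of the pair were far apart, and 129S1/SvImJ (0.997%) and A/J (2.12%) lay with NOD/ShiLtJ. C57BL/6J (80.1%), DBA/2J (89.7%) and WSB/EiJ (69.4%) lay with NZO/HlLtJ, and the remaining strains had no value. The tile also held 2 positions listed in NOD/ShiLtJ alone and 3 in NZO/HlLtJ alone.

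Near Gm28166, another long non-coding RNA gene 2959 bp away, the tile at chr9:100446001-100447000 had 4.26, 0.463 and 0.347% in NOD/ShiLtJ and 89.2, 94.3 and 88.1% in NZO/HlLtJ over 18 positions. All 7 other strains were low here, from 0.275% in WSB/EiJ to 12.1% in PWK/PhJ, so that the NZO/HlLtJ samples alone were high. The adjusted p was 0.00106 (limma).

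Zfp872, a zinc finger gene, had a called tile on each side of its start, and the other strains divided differently in them. Upstream, at chr9:22187001-22188000, NOD/ShiLtJ was at 9.52% ± 2.65 and NZO/HlLtJ at 96.7% ± 1.13 (SD, n = 3 each), and the samples did not overlap. CAST/EiJ was at 35.6% there and the other 6 strains were at 87.5 to 97.8%, near NZO/HlLtJ. The tile that holds the start, at chr9:22188001-22189000, had 2.67, 5.55 and 4.32% in NOD/ShiLtJ and 78.8, 76.4 and 74.2% in NZO/HlLtJ. Here A/J was at 81.1%, PWK/PhJ had no value and the others were at 3.11 to 21.3%, near NOD/ShiLtJ.

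Trim7, which encodes a ubiquitin ligase that binds the glycogen primer glycogenin, had 1.14, 8.93 and 0% in NOD/ShiLtJ and 82.1, 92.6 and 89.7% in NZO/HlLtJ in the tile over its start, chr11:48826001-48827000 (adjusted p = 0.00557, limma). PWK/PhJ (70.5%) was high and 129S1/SvImJ (31.4%) intermediate, and the other strains with a value were at 1.45 to 9.49%. The tile overlaps Gm12184 as well. Camk2b, a calcium-dependent kinase subunit, had 0.571, 0 and 2.32% against 84.5, 86.0 and 88.0% at chr11:6007001-6008000 inside the gene. Outside genes, chr11:53903001-53904000 was at 3.03% ± 0.678 in NOD/ShiLtJ and 87.3% ± 3.42 in NZO/HlLtJ (SD, n = 3 each), with PWK/PhJ and WSB/EiJ high beside NZO/HlLtJ.

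Sgk1 was among the largest differences toward NOD/ShiLtJ. It encodes a kinase induced by serum and glucocorticoids that acts downstream of phosphoinositide signalling. At chr10:21997001-21998000, inside the gene and 2335 bp from a start, the NOD/ShiLtJ samples had 72.2, 84.6 and 82.0% and the NZO/HlLtJ samples 1.22, 7.08 and 0.826% over 11 positions. The difference was 76.5 points (SE 4.29, adjusted p = 0.00465, limma). CAST/EiJ was at 41.1% and the other 6 strains at 66.1 to 89.6%, so that NZO/HlLtJ was the lowest of the 9. The next tile, chr10:21998001-21999000, was at 79.0% ± 2.21 against 38.2% ± 2.23 (SD, n = 3 each), a call kept in 3 of 6 fits that left out a sample.

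Other large differences toward NOD/ShiLtJ lay in less studied genes. Adjacent tiles of 4930519G04Rik at chr5:114878001-114880000 were at 83.4% ± 1.90 and 90.5% ± 0.719 in NOD/ShiLtJ and at 4.07% ± 1.47 and 10.3% ± 3.45 in NZO/HlLtJ (SD, n = 3 each). The pseudogene Gm7177 (chr17:15536001-15537000) was at 87.2% ± 3.73 against 9.03% ± 4.27 (SD, n = 3 each), with WSB/EiJ high and the other 6 strains low. A tile 5472 bp from Wnt8b, a gene of a Wnt ligand, was at 89.9% ± 5.94 against 13.3% ± 2.94 (SD, n = 3 each) at chr19:44487001-44488000. The long non-coding gene D430020J02Rik, 436 bp from a start of Ncapg2, was at 83.3% ± 6.03 against 11.7% ± 6.65 (SD, n = 3 each), and DBA/2J was low beside NZO/HlLtJ. That call held in 4 of 6 fits that left out a sample. The pseudogene Gm3786 was at 91.5% ± 5.88 against 19.1% ± 4.30 (SD, n = 3 each) at chr5:117294001-117295000. A tile outside genes at chr12:25871001-25872000 was at 84.9% ± 1.60 against 12.7% ± 1.30 (SD, n = 3 each), with A/J, C57BL/6J, CAST/EiJ and PWK/PhJ high and 129S1/SvImJ, DBA/2J and WSB/EiJ low.

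Which strain of the pair carried the more common level was counted in the 184 called tiles with a value in all 7 other strains. A strain was put on the side of the midpoint between NOD/ShiLtJ and NZO/HlLtJ on which its mean lay. In 35 tiles (19%) NZO/HlLtJ stood apart, with at least 6 of 7 strains on the NOD/ShiLtJ side. NOD/ShiLtJ stood apart in 31 tiles (16.8%), and in the other 118 (64.1%) the strains divided. All 7 strains sided with NOD/ShiLtJ in 10 tiles and with NZO/HlLtJ in 16. NZO/HlLtJ was the lower strain in 20 of its 35 tiles and the higher in 15, while NOD/ShiLtJ was higher in 16 of its 31 and lower in 15. With 50 points as the minimum difference, NZO/HlLtJ stood apart in 6 and NOD/ShiLtJ in 11 of 37 tiles. The order of the strains thus depended on the setting, and no difference between these counts was tested.

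C57BL/6J was on the NOD/ShiLtJ side least often, in 122 of 273 called tiles with a value (44.7%), and A/J most often, in 156 of 269 (58%). Of the wild-derived strains, CAST/EiJ sided with NOD/ShiLtJ in 52.5% of tiles, PWK/PhJ in 56.1% and WSB/EiJ in 50.2%.

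**Figure D3:**
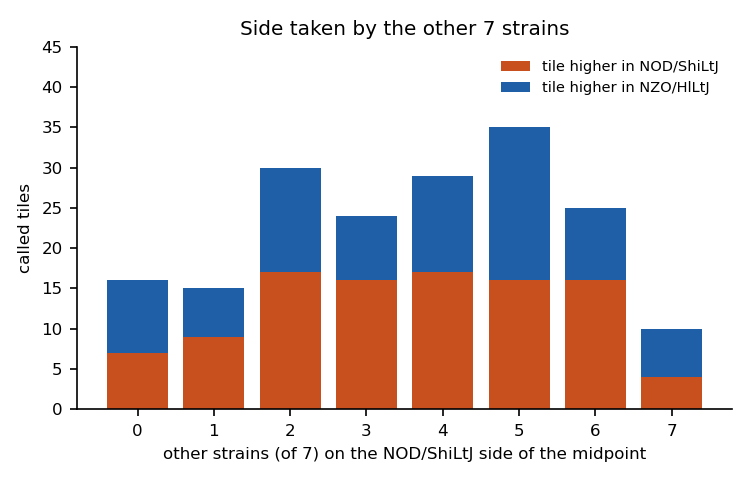
Called tiles with a value in all 7 other strains (vertical axis, number of tiles) by how many of those strains lay on the NOD/ShiLtJ side of the midpoint (horizontal axis), split by the strain with the higher level. All 7 lay with NZO/HlLtJ in 16 tiles (bar at 0) and with NOD/ShiLtJ in 10 (bar at 7), and the tallest bar, at 5, holds 35.

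NOD/ShiLtJ stood apart from all 7 at Gm8773, a predicted protein-coding gene. The tile that holds its start, chr5:5574001-5575000, had 84.9, 89.97 and 84.0% in NOD/ShiLtJ and 16.3, 23.1 and 8.92% in NZO/HlLtJ over 17 positions. The other strains were at 2.98 to 21.7%. The adjacent upstream tile was at 71.0% ± 3.86 against 13.7% ± 1.13 (SD, n = 3 each), and both calls held in 6 of 6 fits that left out a sample.

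At 4 tiles of the named set NOD/ShiLtJ alone was low. B4galnt1, a glycosyltransferase gene of ganglioside synthesis, had 7.74, 7.02 and 7.70% in NOD/ShiLtJ and 63.8, 58.6 and 64.3% in NZO/HlLtJ over 24 positions at chr10:127170001-127171000 (adjusted p = 0.0014, limma), and the other strains were at 56.7 to 72.4%. Pdlim4, an actin-binding adaptor gene, was at 23.7% ± 5.73 against 87.7% ± 3.71 (SD, n = 3 each) at chr11:54060001-54061000. Egln1, whose product is an oxygen sensor that hydroxylates hypoxia-inducible factor, was at 17.9% ± 1.61 against 60.4% ± 3.86 (SD, n = 3 each) at chr8:124912001-124913000. The fourth tile lay outside genes, at chr8:125370001-125371000, with 11.1% ± 1.03 against 84.2% ± 6.76 (SD, n = 3 each). The long non-coding gene Gm29638 (41.4% against 3.41%) and a tile outside genes at chr3:65871001-65872000 (67.7% against 30.7%) were high in NOD/ShiLtJ alone, and neither call held in any fit that left out a sample.

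NZO/HlLtJ alone was high at Ptk7, a pseudokinase receptor gene of Wnt signalling. Its tile at chr17:46629001-46630000 overlaps the start and had 17.1, 12.7 and 11.1% in NOD/ShiLtJ and 50.8, 49.9 and 50.5% in NZO/HlLtJ over 64 positions. Its promoter window, with 3 positions read, was at 56.1% against 68.2%. The 7 other strains were at 4.53 to 26.0% in the tile, and the call held in 2 of 6 fits that left out a sample. A tile 802 bp from Zfp367, a zinc finger gene, was at 12.0% ± 2.24 against 59.4% ± 4.73 (SD, n = 3 each) over 23 positions, a call that held in 6 of 6. The other strains had means of 10 to 31.8% there, but 1 of the DBA/2J samples, at 56.4%, lay within the range of the NZO/HlLtJ samples. Zfp354a was the clearest case of NZO/HlLtJ alone being low, with 93.9, 93.9 and 91.9% in NOD/ShiLtJ, 46.8, 50.7 and 48.2% in NZO/HlLtJ and 81.4 to 93.6% in the other strains. Pde1a, a cyclic nucleotide phosphodiesterase gene, was at 71.6% ± 2.01 against 35.2% ± 0.912 (SD, n = 3 each) in the tile over its start, a call that held in 1 of 6 fits that left out a sample. The long non-coding gene Gm41996 was at 80.9% ± 2.69 against 51.6% ± 1.68 (SD, n = 3 each), also called in 1 of 6. Ifnlr1, which encodes a chain of the interferon lambda receptor (59.0% against 89.6%), and Notch2, a receptor of bile duct development (77.7% against 48.3%), were called with all 6 samples only.

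**Figure D4:**
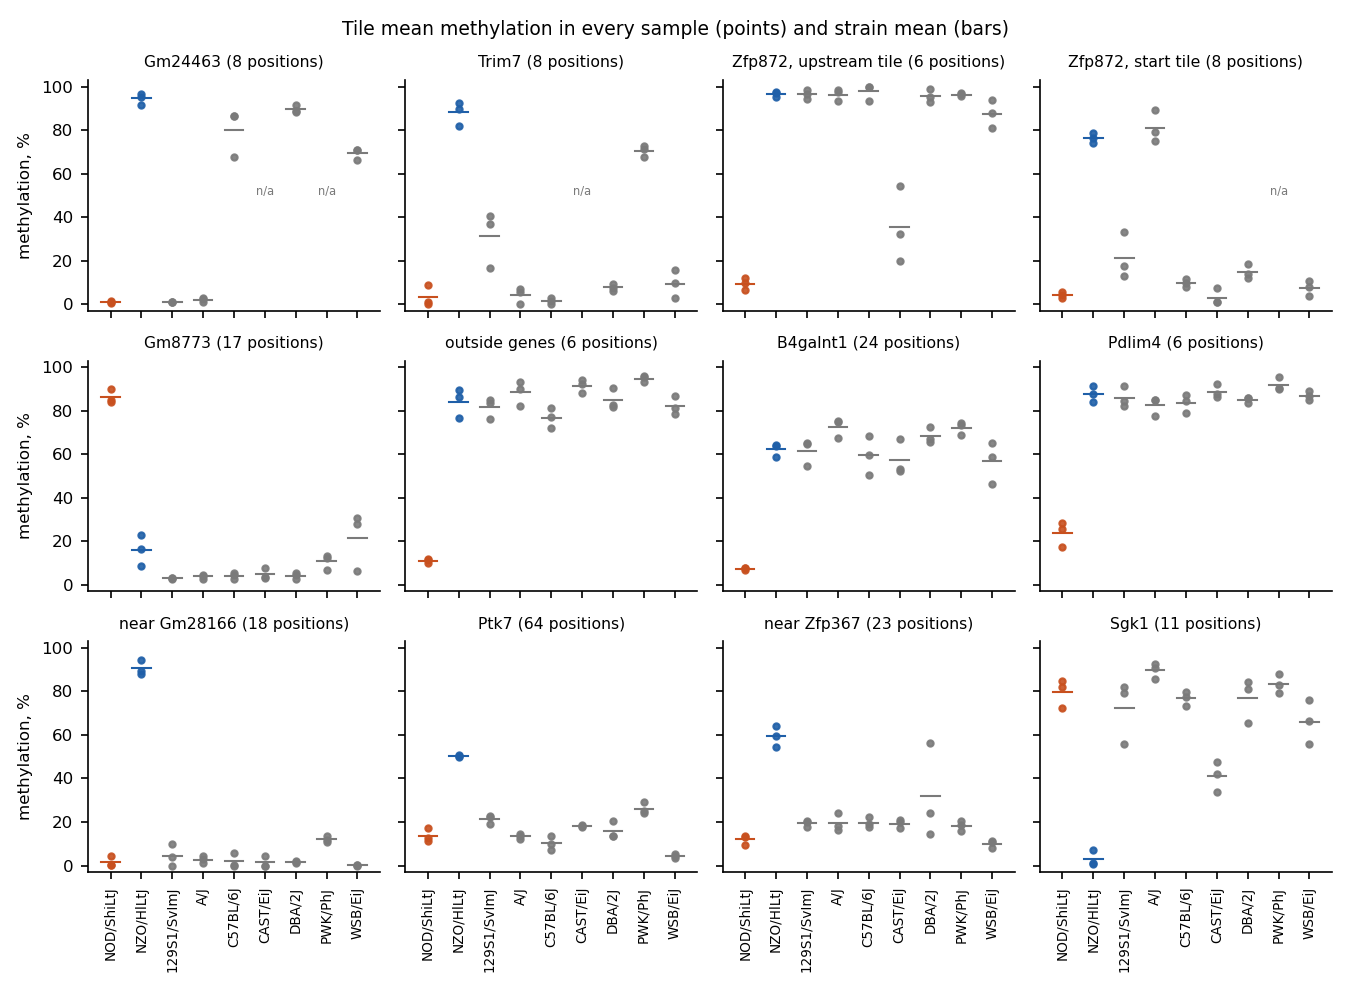
Tile mean methylation in percent (vertical axis) in every sample of the 9 strains (horizontal axis) for 12 named tiles. Points are samples and short bars strain means, with NOD/ShiLtJ in orange, NZO/HlLtJ in blue and the other strains in grey, and n/a marks a strain with no value. The middle row shows tiles where NOD/ShiLtJ alone differed. In the bottom row the first 3 panels show tiles where the mean of NZO/HlLtJ was high and those of all other strains lower, with 1 DBA/2J sample as high near Zfp367, and the last shows Sgk1, where it was lowest.

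At the starts of protein-coding genes (within 1 kb of a start in the table) 32 of 7086 tested tiles were called, or 0.452%, beside 0.353% of all tested tiles. The share was 0.362% (28 of 7735) at 1 to 5 kb from a start, 0.407% (140 of 34389) at 5 to 50 kb and 0.285% (93 of 32639) beyond, so that it did not fall steadily with distance. Mean level was not matched between these classes, and its part in the shares was not tested. On chromosome 18, which had no start in the table, 5 of 2534 tiles were called (0.197%). A start was known for 17273 of 21627 protein-coding genes, so tiles near a missing start were counted as farther away. Of the 32, 20 were higher in NOD/ShiLtJ and 12 in NZO/HlLtJ. The tile over the shared start region of Tmem267 and 3110070M22Rik, chr13:119488001-119489000, was the most densely read of those described, with 73 positions. It had 52.7, 49.2 and 51.6% in NOD/ShiLtJ and 4.48, 5.31 and 3.85% in NZO/HlLtJ (adjusted p = 0.00143, limma). The difference lay on one side of it, since a second Tmem267 start window in the same tile was at 0% and 0.758% over 4 positions. The same tile held 58 further positions listed in NOD/ShiLtJ alone and 30 in NZO/HlLtJ alone. WSB/EiJ (49.99% ± 1.02) was near NOD/ShiLtJ and CAST/EiJ (3.90%) near NZO/HlLtJ. The samples of C57BL/6J (23.8 to 54.2%), 129S1/SvImJ and PWK/PhJ fell on both sides of the midpoint.

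Serpina1a, which encodes the protease inhibitor alpha-1 antitrypsin and is a hepatocyte marker, had 71.4, 72.2 and 83.3% in NOD/ShiLtJ and 17.9, 10.98 and 14.2% in NZO/HlLtJ over 6 positions 382 bp from its start, at chr12:103864001-103865000. A/J was at 26.8% and the other strains with a value were at 65.7 to 77.4%. Serpina1a has close paralogs beside it, and how reads were divided among them was not tested. The call held in 5 of 6 fits that left out a sample and was lost without NZO/HlLtJ replicate 3 (limma). Mrps24, a mitochondrial ribosomal protein gene, was at 76.2% ± 6.87 against 11.8% ± 5.63 (SD, n = 3 each) 300 bp from its start, and the call held in 3 of 6 fits that left out a sample. Sgo2b, a shugoshin gene of chromosome cohesion, was at 64.8% ± 3.14 against 3.82% ± 2.21 (SD, n = 3 each), and the 4 other strains with a value were at 2.66 to 24.1%. Lhcgr, the luteinizing hormone receptor gene, was at 60.6% ± 9.18 against 7.26% ± 2.40 (SD, n = 3 each) at chr17:88791001-88792000, with the other strains between them at 17.2 to 43.7%, and its call held in 4 of 6 such fits. The adjacent tile, which holds the start, was at 44.7% ± 7.86 against 4.22% ± 2.40 (SD, n = 3 each), a call that held in 2 of 6. Gm50595 was the reverse, with 14.3% ± 2.07 in NOD/ShiLtJ and 79.3% ± 9.28 in NZO/HlLtJ (SD, n = 3 each), and its call held in 4 of 6. Gm28455 was at 78.8% ± 2.61 against 18.6% ± 11.4 (SD, n = 3 each), a call that held in 1 of 6.

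A further set of tiles was picked after their values were seen, as called tiles met by a promoter window with 3 or more positions read. In 4 of them the window itself differed about as much as the tile. In these 4 the window held most or all of the tile's read positions, so the 2 values are not separate readings. Gm36405 had window means of 59.8% in NOD/ShiLtJ and 19.1% in NZO/HlLtJ over 7 positions, and Ect2l 48.6% and 9.18% over 8. The window of D7Ertd143e, in a tile at chr7:3218001-3219000 that overlaps Nlrp12 and the microRNA genes Mir290a, Mir290b and Mir291a as well, was at 75.6% against 40.5% over 6 positions. Tsc22d1, a leucine zipper gene, was the reverse, at 28.2% against 64.6% over 7. In 3 other tiles the window differed far less than the tile. The tile of Tjap1 was at 3.22% against 41.5% and its window at 1.85% against 15.1% over 13 positions. Pafah2, a phospholipase gene, was at 93.6% against 64.6% in the tile and at 95.0% against 80.8% and 96.1% against 85.8% in its start windows. A tile in Htr2a, a serotonin receptor gene, was at 41.5% against 10.9%, and the window that met it, of Gm41210, was at 5.23% against 2.71%. Of these 7 tiles none was called in more than 3 of 6 fits that left out a sample.

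Among protein-coding genes with a tested tile in the gene or within 2 kb, 177 of 14142 (1.25%) had a called tile. The insulin and IGF signalling list had 3 of 28 genes with one: Sgk1, Trib3 and Inpp5a. By tiles this was 4 of 173, beside 298 of all 84383 tested tiles. Neither the number of tested tiles per gene nor their mean level was matched, and the lists were chosen with earlier results of these data known. Trib3, a pseudokinase that binds the kinase Akt, had 69.0, 72.6 and 73.3% in NOD/ShiLtJ and 36.3, 40.6 and 34.0% in NZO/HlLtJ at chr2:152337001-152338000. Inpp5a, an inositol phosphatase gene, was lower in NOD/ShiLtJ, at 64.7% ± 1.95 against 90.6% ± 3.53 (SD, n = 3 each) at chr7:139559001-139560000. Neither the Trib3 nor the Inpp5a call held in any fit that left out a sample, and each such fit left 1 called gene in the list. Akt1, the kinase itself, was at 39.2% ± 10.5 against 75.1% ± 4.45 (SD, n = 3 each) in its most different tile and was not called (adjusted p = 0.0696, limma). The starts of the insulin receptor gene Insr and of the adaptor genes Irs1 and Irs2 were under 1% in both strains.

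Of the obesity and type 2 diabetes candidates 1 of 15 genes had a called tile, beside 1.25% of all protein-coding genes. This was Fto, an RNA demethylase gene linked to human body mass, with 26.2, 23.4 and 29.5% in NOD/ShiLtJ and 76.1, 75.4 and 67.5% in NZO/HlLtJ at chr8:91407001-91408000, a call kept in 3 of 6 fits that left out a sample. DBA/2J (5.62%) and WSB/EiJ (8.42%) lay beyond NOD/ShiLtJ, and CAST/EiJ (93.0%) and A/J (83.9%) beyond NZO/HlLtJ. Lepr, the leptin receptor gene, had no tested tile, and its start was at 0.737% ± 0.216 against 0.855% ± 0.796 (SD, n = 3 each). Pctp, a phosphatidylcholine transfer protein gene, was at 88.6% ± 6.81 against 57.5% ± 15.5 (SD, n = 3 each) in its 1 tested tile and was not called (adjusted p = 0.181, limma).

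None of the 13 autoimmune diabetes candidates with a tested tile had a called one (limma), beside 1.25% of all protein-coding genes. Of their 48 tiles 3 had an unadjusted p under 0.05, against 10.2% of all tested tiles. The median absolute difference of these tiles was 2.08 points, against 2.23 points over all tested tiles. By genes it was 2.62 points against 2.19 points over all protein-coding genes. The class II genes H2-Aa and H2-Ab1 had no tested tile, as had Il2 and Ctla4. The glucose and glycogen list had 0 of 22 genes with a called tile by limma and the lipid list 0 of 34, with 13 of 92 and 24 of 167 tiles at an unadjusted p under 0.05. Lists this short cannot tell 0 called genes from a share of 1.25%. The largest uncalled differences of the glucose and lipid lists were in Mlxipl, a glucose-responsive transcription factor gene (76.1% ± 14.2 against 41.6% ± 18.7), and Acacb, an acetyl-CoA carboxylase gene (42.4% ± 18.4 against 7.17% ± 6.34), each with wide spread (SD, n = 3).

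**Figure D5:**
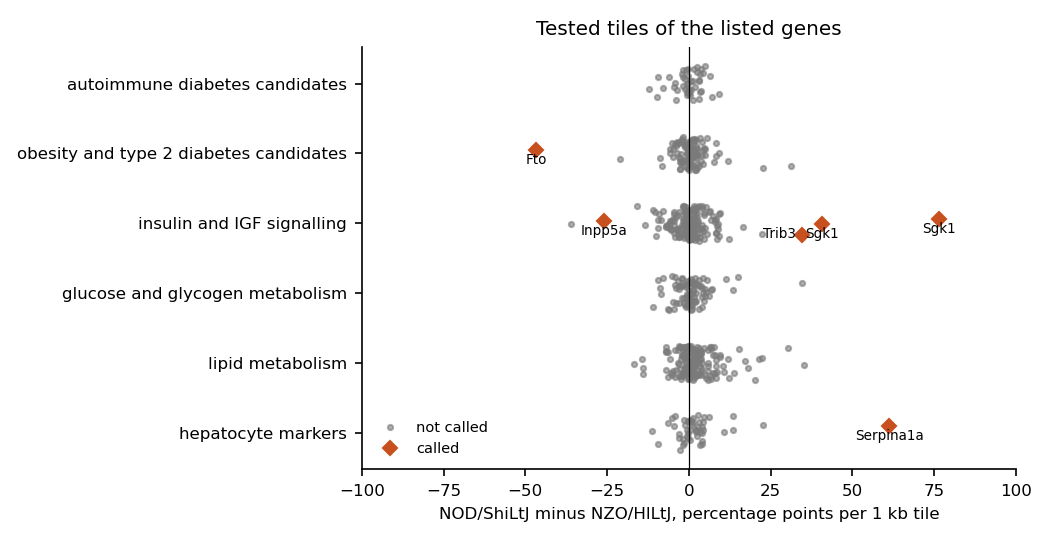
Difference in methylation between NOD/ShiLtJ and NZO/HlLtJ in percentage points (horizontal axis) for every tested tile of 6 gene lists (rows, points spread vertically for visibility). Grey points were not called and orange diamonds were called; called tiles lay in Fto, Sgk1, Trib3, Inpp5a and Serpina1a.

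Levels of cell type markers were read within 1 kb of the starts of the genes, or of either end where the start was not known. Hepatocyte markers had median start levels of 3.02% in NOD/ShiLtJ and 3.06% in NZO/HlLtJ over 15 genes with a value. Immune cell markers had 89.6 and 82.9% over 6 genes, and endothelial, stellate and bile duct markers 22.4 and 23.8% over 15. Medians in lists not chosen as markers were lower still than in hepatocyte markers. They were 1.48 and 1.67% for autoimmune diabetes candidates, 0.676 and 0.639% for insulin signalling and 0.520 and 0.646% for lipid metabolism. A low start level thus does not establish cell identity here. Alb and Ttr had no position listed in all 6 samples at their starts. Serpina1a was the 1 of 14 hepatocyte markers with a called tile, beside 1.25% of all protein-coding genes. Of 19 immune and 18 endothelial, stellate and bile duct genes with a tested tile, none had a called tile by limma, and 5 of 28 and 11 of 87 tiles had an unadjusted p under 0.05, beside 10.2% of all tested tiles. Whether the share of other cells differed between the strains was not tested.

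Called tiles, 0.353% of all tested tiles, were spread thinly. Of 232 windows of 1 Mb with a called tile, 48 had 2 or more. By number of called tiles the fullest were chr12:108000001-109000000 with 5 of 89 tested tiles, chr17:46000001-47000000 with 5 of 130, all higher in NZO/HlLtJ (3 in Ptk7, 1 in Tjap1 and 1 in Rsph9), and chr4:154000001-155000000 with 4 of 168. By share, chr5:5000001-6000000, with 3 of 10 tested tiles called, stood above them. Joined within 5 kb, the called tiles formed 281 runs, of which 17 had 2 tiles and none had more, and 16 of the 17 ran in 1 direction. The exception joined a tile higher in NOD/ShiLtJ with the Trim7 tile. By chromosome the share called was highest on 17 (26 of 3846, 0.676%) and 12 (20 of 3336, 0.6%) and lowest among autosomes on 16 (3 of 2523, 0.119%). On X 0 of 2891 tiles were called by limma, and 232 had an unadjusted p under 0.05, beside 0.353% and 10.2% of all tested tiles. The mean levels of tiles were not matched between chromosomes or windows.

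The mean over all positions in the 6 samples was 37.9% ± 0.0928 in NOD/ShiLtJ and 37.8% ± 0.162 in NZO/HlLtJ (SD, n = 3 each), a difference of 0.0972 points, and the samples overlapped (exact two-sided permutation test, p = 0.4). On X, however, all 3 NOD/ShiLtJ samples (55.1, 55.3 and 55.6%) were below all 3 NZO/HlLtJ samples (56.2, 55.8 and 56.8%) over 61083 positions. The exact two-sided permutation p was 0.1, the smallest that 3 against 3 allows. Over the 39017 X positions listed in all 27 samples NOD/ShiLtJ was at 44.5% ± 0.334 and NZO/HlLtJ at 45.7% ± 0.398 (SD, n = 3 each), inside the range of the other strains from 42.8% (CAST/EiJ) to 46.9% (A/J).

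Positions also differed between the strains by being listed. Of those listed in all 3 NOD/ShiLtJ samples, 81472 (3.15%) were in no NZO/HlLtJ sample, and 98581 (3.67%) of those in all 3 NZO/HlLtJ samples were in no NOD/ShiLtJ sample. Their mean levels were 69.6% and 69.3%, above the 37.9 and 37.8% of the shared positions. Tiles that held at least 1 such position were called in 135 of 11803 cases (1.14%), and those without in 163 of 72580 (0.225%). Of the called tiles 45.3% held such a position, against 14% of tested tiles. Among the largest differences besides Gm24463, the upstream Zfp872 tile held 2 for each strain. Camk2b held 6, D430020J02Rik 6 and Trim7 4 in NOD/ShiLtJ alone, and Gm7177 8 and Gm3786 6 in NZO/HlLtJ alone. The tiles near Gm28166 and Wnt8b and those at chr10:21997001-21998000 (Sgk1), chr5:114879001-114880000 and chr12:25871001-25872000 held none. Tiles with and without such a position were not matched for mean level, and its part in these shares was not tested. A sequence difference between strains can remove a CpG or the cut site, and strain genomes were not used here. The part of sequence differences in the called tiles and in the called single positions was not tested.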

How the data were processed

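The authors deposited, for each of 27 RRBS libraries, a list of positions with the percent methylation, per the file headers, and no coverage. The submitters' processing notes name Trim Galore 0.6.3, Bowtie2, Bismark 0.22 and GRCm38/mm10; roles, parameters and any coverage filter are not given in the sources used here. Of listed positions in RefSeq promoter windows, 95.8% fell on a CG of GRCm38.p6. Listed positions per sample numbered 2904787 to 3115149 in the pair; the depth is unknown.

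Tile means were tested with limma 3.58.1 (R 4.3.3) on log2((percent + 5)/(100 - percent + 5)) in the 6 samples, strain as the factor, with Benjamini-Hochberg adjustment. The steps were also run on simulated data with independent noise for each tile and sample, which cannot test the part of depth or sequence differences. Differences, means and SDs are in percentage points. The labels call the samples biological replicates. Gene names come from the GRCm38.p6 table (in the gene, or nearest within 10 kb); exons and introns were not analysed here. Named are the 8 largest called tiles per direction, the largest 4 per direction apart from all 7 strains, called tiles of the listed genes, the 10 largest at coding starts, the fullest windows and runs and, chosen after their values were seen, called tiles met by a promoter window with 3 or more positions read. The pair, the gene lists and the rules were chosen with earlier results of these data known. Alternatives are in the closing section.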

Additional observations from a re-analysis of the deposited data

Results flagged for a closer look

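Although the mice are labelled female, each of the 6 samples listed some Y chromosome positions, which entered no comparison. Their numbers were 1059, 1039 and 1179 in NOD/ShiLtJ replicates 1, 2 and 3 and 1141, 997 and 1009 in NZO/HlLtJ replicates 1, 2 and 3. Every sample of the series listed such positions, from 790 in A/J replicate 1 to 1686 in PWK/PhJ replicate 2, so the pair was not unusual.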

How the results depend on the processing

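The number of called tiles (298) fell whichever sample was left out. Leaving out 1 sample gave 73 to 161 tiles and 218 to 279 called positions (402 with all 6). Called tiles numbered 181 with an offset of 1, 157 with 10 or more positions per tile and 67 with a minimum difference of 50 points, and within 1.5 times of 298 under the other settings tried except the replicate block. Like numbers did not always mean the same tiles. Of 290 tiles called with 3 or more positions per tile, 184 were among the 298, and of 252 with the spread of all 27 samples, 164 were. The setting of all 27 samples used only positions listed in all 27, which left 44631 tiles and 668638 positions tested. With limma's trend and robust settings all 298 stayed called. The number of positions was 101 with an offset of 1, 1636 on untransformed percentages, 1624 without the filter on the mean, 2091 with the spread of all 27 samples and 1250 with limma's trend and robust settings. The replicate numbers did not pair the samples, since deviations of same-numbered samples had correlations of -0.0106, 0.00551 and 0.00865. With the replicate block, which left 2 residual degrees of freedom, 36 tiles and 0 positions were called by limma, and 53639 positions had an unadjusted p under 0.05. No named tile changed sign in its 837 alternative values, but 181 of these values were no longer called. Leaving out a sample could not turn the sign, since no samples of the strains overlapped in the 298 called tiles. Nor could settings that left the tile means as they were. With the replicate block 20 of the 49 named tiles were called. Among called positions the balance turned toward NZO/HlLtJ without any 1 NOD/ShiLtJ sample. It moved further toward NOD/ShiLtJ without any 1 NZO/HlLtJ sample. Tiles with NZO/HlLtJ apart, NOD/ShiLtJ apart and neither (35, 31 and 118) became 10, 16 and 158 when all 7 strains were required, 6, 11 and 20 at 50 points, 24, 27 and 133 when strains in the middle of the interval were not counted, 51, 51 and 180 over tiles of 25 points without overlap, and 16, 14 and 66 in tiles without a position listed in 1 strain only. Without 1 sample they were 9 to 20, 12 to 16 and 21 to 63. NOD/ShiLtJ was thus the more often apart in the first 3 of these settings and in each fit without 1 sample except that without NOD/ShiLtJ replicate 2 (20 and 16). The settings of 25 points without overlap, of positions listed in 1 strain only and of leaving out a sample for these counts, and the fits of the insulin list without 1 sample, were chosen after seeing the data. Listing in at least 2 samples gave 135842 and 171652 positions in 1 strain alone. Of the 49 named tiles 22 were called in every fit that left out 1 sample and 8 in none. Depth could not be weighed, because the files hold none.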
